A study of Mus musculus with 20 samples.

Results

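The miR-322, miR-503, miR-351, miR-542, miR-450a and miR-450b cluster is a group of 7 small hairpin RNAs on the mouse X chromosome. Its members were taken by name, as every row for one of these miRNAs with any arm or locus suffix, and 13 mature miRNAs were found among the 1509 listed in the study. Of these, 12 were listed in every file and miR-450a-1-3p was listed in 5 of the 10 mice. Liver small RNA of C57BL/6 mice aged 6 weeks was sequenced, from 5 PiZ animals and from 5 wild-type (WT) animals without a transgene. The PiZ transgene encodes the mutant Z form of human alpha-1 antitrypsin, an inhibitor of neutrophil elastase that hepatocytes make and secrete, and whose Z form misfolds and builds up in their endoplasmic reticulum. The sources used here do not give the sex of the mice or the promoter of the transgene. Each library was run 2 times; the runs were added up, and a replicate here is a mouse.

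A microRNA hairpin is cut by Drosha and Dicer into a duplex, and one or both strands, named 5p and 3p after their arm, are loaded into an Argonaute protein. Pairing of bases 2 to 8, the seed, with sites in messenger RNAs then leads to repression of those messages. Mouse miR-322 corresponds to human miR-424 and, with miR-503, is known for repressing cell cycle regulators such as cyclin D1 and Cdc25a and for its part in muscle differentiation. Hairpins that lie close together on a strand are often transcribed together and cut apart afterwards.

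RefSeq (GRCm38.p6) places the 7 hairpins on the minus strand of chrX:53047997-53054349, a stretch of 6353 bases. In the direction of transcription the order is Mir322, Mir503, Mir351, Mir542, Mir450-2, Mir450-1 and Mir450b. Gaps of 200 and 630 bases separate the first 3 hairpins, which lie within the annotated long non-coding RNA C430049B03Rik (chrX:53053112-53057190). A gap of 3767 bases leads to Mir542 and one of 1035 bases to the miR-450 hairpins, which stand 54 and 75 bases apart. The 13 mature sequences hold 12 different seeds.

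The mature forms that the results turn on are shown because their seeds group them and because their base composition differs widely. The seed is in capitals.
miR-322-5p: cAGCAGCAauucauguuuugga
miR-322-3p: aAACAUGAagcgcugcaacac
miR-503-5p: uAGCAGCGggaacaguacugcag
miR-503-3p: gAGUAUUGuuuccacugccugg
miR-351-5p: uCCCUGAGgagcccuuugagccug
miR-542-5p: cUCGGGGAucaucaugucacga
miR-542-3p: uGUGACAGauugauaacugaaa
miR-450a-5p: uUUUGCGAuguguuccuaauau
miR-450b-5p: uUUUGCAGuauguuccugaaua
miR-450b-3p: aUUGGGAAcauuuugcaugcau
miR-450a-1-3p: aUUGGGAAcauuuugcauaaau

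The seed of miR-322-5p is also that of miR-16-5p and the miR-15 family, and the seed of miR-351-5p is also that of miR-125b-5p, both of which come from other loci.
miR-16-5p: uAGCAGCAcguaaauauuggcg
miR-125b-5p: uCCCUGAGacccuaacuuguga
The miR-450b-3p and miR-450a-1-3p sequences above share a seed. The miR-450a-5p sequence is identical in Mir450-1 and Mir450-2, so its reads cannot be assigned to one hairpin.

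Library totals ran from 1307857 reads (WT mouse 1) to 10780801 reads (PiZ mouse 4). A read was worth 0.0888 to 0.715 CPM (reads scaled to a library of 1000000, with TMM factors). The files hold 2 lists of miRNAs: a longer one for PiZ mice 1 and 2 and WT mice 1 to 3, and a shorter one for PiZ mice 3 to 5 and WT mice 4 and 5. WT mice 1 and 3 stood apart from the other libraries, and their deviations went with base composition. Over the 293 tested miRNAs with a RefSeq sequence (87.2% of those tested), Spearman's rho between GC content and a library's deviation from the miRNA's median was 0.670 in WT mouse 1 and 0.471 in WT mouse 3, against -0.232 to -0.028 in the other 8 mice. These miRNAs share libraries, so the values are descriptions with no test. The fold changes of the members that passed the filter, and the medians of lists, are therefore given with and without WT mice 1 and 3. In bulk liver, fewer cells of a type and less RNA per cell cannot be told apart.

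The cluster was a small part of liver miRNA. It gave 1294, 1419, 5371, 6651 and 5807 reads in PiZ mice 1 to 5, or 0.0532% to 0.0617% of each library. In WT mice 1 to 5 it gave 663, 755, 755, 3428 and 4755 reads, or 0.0370% to 0.0507%. The summed level was 582 ± 67.0 CPM in PiZ mice (529.6 to 694 CPM) and 465 ± 55.9 CPM in WT mice (394 to 519.5 CPM; SD, n = 5 each). All 5 PiZ mice lay above all 5 WT mice in this sum, by a margin of 529.6 against 519.5 CPM between the nearest mice. No test was made on the sum. Taken singly, 6.55% of all tested miRNAs showed this pattern. Among the members miR-322-5p showed it, while miR-351-5p overlapped, at 186 to 243 CPM in PiZ mice and 117 to 342 CPM in WT mice. The miR-322 hairpin held the largest mean share of cluster reads in PiZ mice, 51.9% ± 2.13, followed by miR-351 with 35.2% ± 2.09 and miR-450a with 9.70% ± 1.83. In WT mice the shares were 41.8% ± 14.6 for miR-322, 47.3% ± 17.9 for miR-351 and 7.70% ± 2.80 for miR-450a (SD, n = 5 each). The wide WT spread came with 2 mice: miR-351 held 72.2% of cluster reads in WT mouse 1 and 59.6% in WT mouse 3, against 29.7% to 38.6% in WT mice 2, 4 and 5 and 32.5% to 38.3% in PiZ mice.

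**Figure D1:**
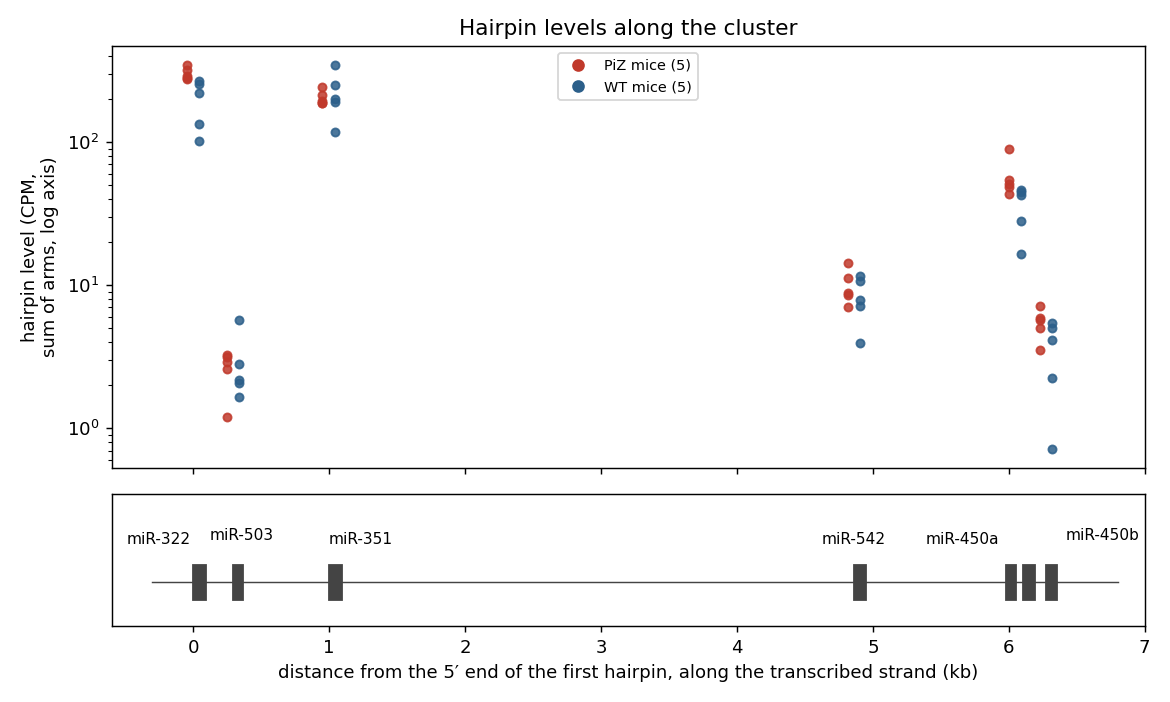
Level of each hairpin (CPM, arms summed, log axis) in 5 PiZ mice (left of each pair) and 5 WT mice, above a scale map of the 7 hairpins by distance from the 5′ end of the first; the miR-450a points stand between its hairpins. The miR-322 and miR-351 hairpins lie above 100 CPM in every mouse, while miR-503, 200 bases after miR-322, lies between 1.196 and 5.72 CPM.

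Read levels differed greatly between neighbouring hairpins. The miR-503 hairpin, the nearest to miR-322, averaged 2.63 ± 0.842 CPM in PiZ mice and 2.89 ± 1.63 CPM in WT mice, beside 302 ± 29.8 CPM in PiZ mice and 195 ± 73.3 CPM in WT mice for miR-322 (SD, n = 5 each). The miR-542 hairpin averaged 10.01 ± 2.79 CPM in PiZ mice and 8.26 ± 3.08 CPM in WT mice. The last hairpin, miR-450b, averaged 5.48 ± 1.33 CPM in PiZ mice and 3.51 ± 1.98 CPM in WT mice. The order by mean level in PiZ mice was miR-322, miR-351, miR-450a, miR-542, miR-450b and miR-503. Here miR-450a stands for the reads of Mir450-1 and Mir450-2 together. In WT mice miR-351 was above miR-322 by mean, but the 2 hairpins did not differ beyond the spread between WT mice (220 ± 83.7 CPM for miR-351), and by median miR-322 was above it (220.2 against 199 CPM). Mature members are 21 to 24 bases long, so these levels were not divided by length. Whether the libraries recovered these different sequences equally was not tested.

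Whether any member differed between PiZ and WT liver was tested with edgeR's quasi-likelihood test, with the file set as a term and Benjamini-Hochberg adjustment over the 336 miRNAs that passed the filter on low counts. Of the 13 members, 7 passed that filter, and 0 of 7 passed an adjusted p of 0.05, against 9.23% of all tested miRNAs. At an unadjusted p under 0.05 there was 1 of 7 members, against 24.4% of all tested miRNAs. With DESeq2, which tested without this filter, 0 of the 11 members with an adjusted p passed, against 10.2% of 532 miRNAs, and 2 of 12 had an unadjusted p under 0.05, against 14.9% of 845. With limma-voom 0 of 7 members passed, against 2.08% of 336 miRNAs, and 1 of 7 had an unadjusted p under 0.05, against 24.1%. The log2 fold change was positive for 5 of the 7 and negative for 2, with a median of 0.50, against 0.07 over all tested miRNAs.

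miR-322-5p, the most abundant member by total reads, had 221, 204, 238, 254 and 249.6 CPM in PiZ mice 1 to 5, against 67.9, 178, 94.1, 204 and 197 CPM in WT mice 1 to 5. The PiZ mice all lay above the WT mice, a pattern shown by 6.55% of all tested miRNAs, but PiZ mouse 2 and WT mouse 4 differed by under 1 CPM. WT mice 1 and 3 were the low ones. The log2 fold change was 0.60 (SE 0.26, edgeR adjusted p = 0.186). Without WT mice 1 and 3 it was 0.24 (SE 0.12, edgeR adjusted p = 0.267), with the groups still apart.

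miR-322-3p, from the other arm of the same hairpin, had 53.2, 75.7, 50.8, 66.9 and 94.95 CPM in PiZ mice 1 to 5, against 33.6, 41.7, 39.8, 61.7 and 56.3 CPM in WT mice 1 to 5. In 3 of 5 PiZ mice it lay above every WT mouse, and the groups overlapped. PiZ over WT, its log2 fold change was 0.50 (SE 0.23, edgeR adjusted p = 0.215) with all mice and 0.33 (SE 0.23, edgeR adjusted p = 0.399) without WT mice 1 and 3.

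miR-503-3p was near the detection limit, with 7, 5, 15, 21 and 10 reads in PiZ mice 1 to 5, against 6, 3, 5, 7 and 17 reads in WT mice 1 to 5. It averaged 1.88 ± 0.630 CPM in PiZ mice and 2.31 ± 1.27 CPM in WT mice (SD, n = 5 each), and the groups overlapped fully. Its log2 fold change was -0.06 (SE 0.37, edgeR adjusted p = 0.968). Without WT mice 1 and 3 it was 0.17 (SE 0.38).

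miR-351-5p, which carries the miR-125 seed, had 189, 214, 186, 192 and 243 CPM in PiZ mice 1 to 5, against 342, 117, 251, 189.6 and 198 CPM in WT mice 1 to 5. Here WT mice 1 and 3 were the high ones, the reverse of miR-322-5p, and the PiZ values fell within the WT range. Its log2 fold change was -0.07 (SE 0.27, edgeR adjusted p = 0.922). Without WT mice 1 and 3 its sign turned, to 0.28 (SE 0.18, edgeR adjusted p = 0.372).

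miR-542-3p, which in human cells is known to repress the inhibitor of apoptosis BIRC5 (survivin), had 8.59, 6.70, 10.5, 13.1 and 6.82 CPM in PiZ mice 1 to 5. In WT mice 1 to 5 it had 2.15, 6.26, 1.12, 10.3 and 9.99 CPM, from 3 and 2 reads in mice 1 and 3. WT mice 4 and 5 lay among the PiZ mice. The log2 fold change was 0.51 (SE 0.41, edgeR adjusted p = 0.505) with all mice and 0.05 (SE 0.28, edgeR adjusted p = 0.937) without WT mice 1 and 3.

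miR-450a-5p had 48.7, 51.2, 42.8, 54.1 and 89.0 CPM in PiZ mice 1 to 5, against 16.5, 42.8, 28.0, 45.8 and 44.6 CPM in WT mice 1 to 5. In 4 of 5 PiZ mice it lay above every WT mouse, and PiZ mouse 5 was far above the rest. On the log2 scale the fold change was 0.61 (SE 0.29, edgeR adjusted p = 0.217) with all mice and 0.32 (SE 0.23, edgeR adjusted p = 0.427) without WT mice 1 and 3.

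miR-450b-5p had 12, 6, 43, 53 and 50 reads in PiZ mice 1 to 5, against 0, 7, 1, 30 and 48 reads in WT mice 1 to 5. The 0 reads in WT mouse 1 allow a level of up to 2.15 CPM, where PiZ mice had 2.36 to 5.98 CPM. The log2 fold change was 0.46 (SE 0.51, edgeR adjusted p = 0.628) with all mice. Without WT mice 1 and 3 its sign turned, to -0.03 (SE 0.28, edgeR adjusted p = 0.968).

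**Figure D2:**
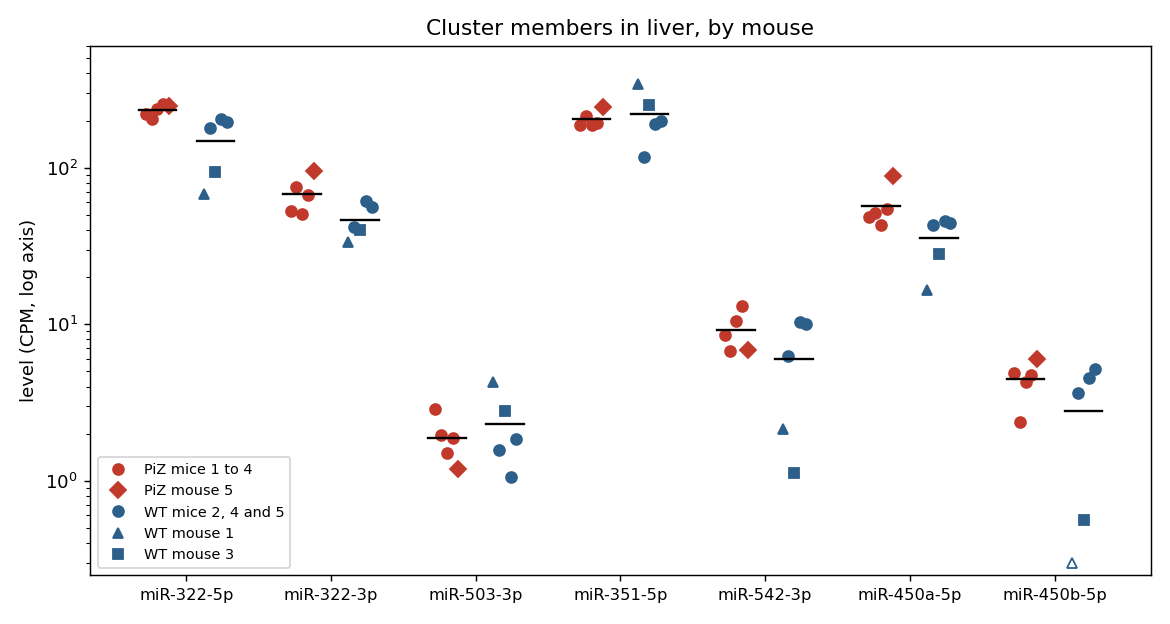
Level of the 7 tested members (CPM, log axis) in each mouse, PiZ left of WT, with black lines at the mean of 5 mice; the open triangle marks 0 reads, drawn at the foot of the axis. WT mice 1 and 3 are the lowest for miR-322-5p, miR-450a-5p, miR-542-3p and miR-450b-5p and the highest WT mice for miR-351-5p and miR-503-3p.

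The members of the cluster thus stood on opposite sides of their medians in WT mice 1 and 3, the AU-rich members below and the GC-rich ones above. In WT mouse 1, log2 CPM stood off the member's median over the mice by -1.68 for miR-542-3p (3 reads) and -1.44 for miR-450a-5p, which share a GC content of 31.8%. miR-450b-5p, also 31.8% GC, had 0 reads there, so the size of its deviation is not given. It stood off by -1.58 for miR-322-5p (40.9% GC) and by -0.70 for miR-322-3p (47.6% GC). For miR-503-3p (50% GC) it stood 1.07 above the median, and for miR-351-5p (62.5% GC) 0.81 above. WT mouse 3 had the same signs for each of the 7 members, from -2.44 for miR-542-3p (2 reads) to 0.51 for miR-503-3p (5 reads). In the other 8 mice the deviations of the 7 members lay between -0.81 and 0.97. The part of base composition in the fold changes was not tested; without these 2 mice the log2 fold changes of the same 7 members lay closer together, between -0.03 and 0.33, with a median of 0.24 against 0.07 over all tested miRNAs.

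**Figure D3:**
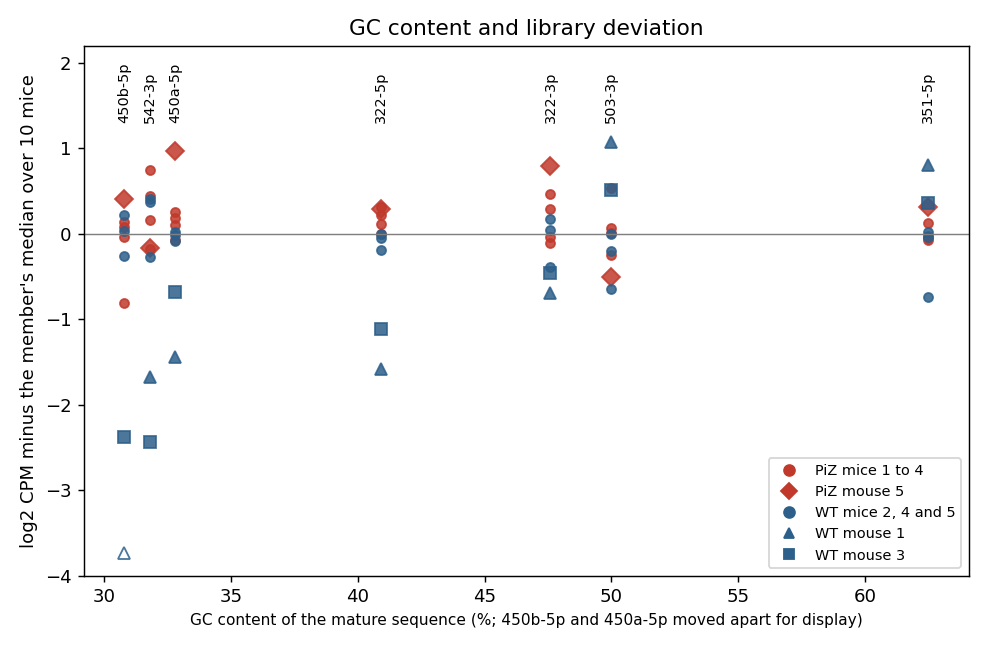
Deviation of each tested member from its median over the 10 mice (log2 CPM) against the GC content of its mature sequence, with PiZ mice in red and WT mice in blue; the open triangle marks 0 reads, where the plotted value is set by the prior count. WT mice 1 (triangles) and 3 (squares) run from far below 0 at 31.8% GC to above 0 at 50% and 62.5% GC, while the other mice stay between -0.81 and 0.97.

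Without WT mice 1 and 3, 8 members were tested, 0 of 8 passed in edgeR, and at an unadjusted p under 0.05 there were 0. The background there was 0% of 410 miRNAs after adjustment, with 104 at an unadjusted p under 0.05. PiZ mouse 5 had the highest level of miR-322-3p, miR-450a-5p and miR-450b-5p of any mouse. When it was left out as well, a choice made after seeing the data, 25.6% of 390 miRNAs passed and 0 of 7 members did. At an unadjusted p under 0.05 there were 0 members, against 148 of the 390 miRNAs. In the comparison without those 3 mice the log2 fold changes of miR-351-5p and miR-503-3p were 0.25 and 0.28, and that of miR-450b-5p was -0.10.

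**Figure D4:**
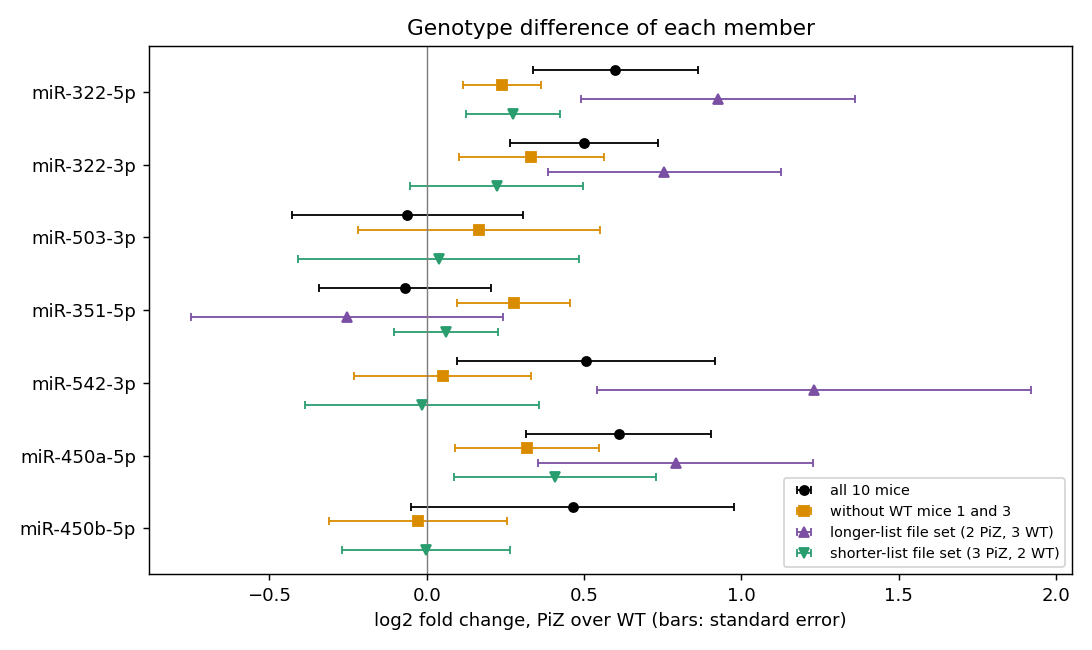
Log2 fold change of PiZ over WT liver for each tested member, with bars of 1 standard error, in all 10 mice, without WT mice 1 and 3, and in each file set alone; miR-503-3p and miR-450b-5p did not pass the filter in the longer-list set. The values of all 10 mice run from -0.07 to 0.61, those without WT mice 1 and 3 from -0.03 to 0.33.

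Each file set holds both genotypes, so it was asked whether the genotype difference depended on the set. In the longer-list set, which holds WT mice 1 and 3, the log2 fold change was 0.92 (SE 0.43) for miR-322-5p and 1.23 (SE 0.69) for miR-542-3p. In the shorter-list set it was 0.28 (SE 0.15) for miR-322-5p and -0.02 (SE 0.37) for miR-542-3p. The interaction was tested for 372 miRNAs, 8 of them members. With edgeR 0 of 8 members passed after adjustment, against 0% of all tested, and 1 of 8 members had an unadjusted p under 0.05, against 4.3% of all tested. With DESeq2, without this filter, 0 of 847 miRNAs passed, and 1 of 12 members had an unadjusted p under 0.05, against 1.77% of the 847. The widest difference among the members was that of mmu-miR-542-5p, the minor arm of miR-542, at 4.05 on the log2 scale in the shorter-list set minus the longer-list set (SE 1.34, edgeR adjusted p = 0.873). It had 0 and 1 reads in PiZ mice 1 and 2, against 7, 3 and 5 reads in WT mice 1 to 3. In the shorter-list set it had 8, 13 and 17 reads in PiZ mice 3 to 5, against 9 and 7 reads in WT mice 4 and 5. The PiZ mice were thus lower in the longer-list set, which holds WT mice 1 and 3, on few reads. In the shorter-list set the groups overlapped, at 0.801 to 2.03 CPM in PiZ mice and 0.760 and 1.36 CPM in WT mice. The log2 fold change there was 0.28 (SE 0.555), so no direction could be told in that set. The difference between the sets did not pass the test. With WT mice 1, 2 or 3 left out in turn, which was not planned beforehand, the difference was between 3.54 and 4.34. PiZ mice 1 and 2, with 0 and 1 reads, were not left out, so this range does not cover their part.

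The 6 members outside the filter were low everywhere. Of these, 5 were tested in a fit with no filter, in which 0 of 12 members passed in edgeR, against 9.74% of 852 miRNAs after adjustment. At an unadjusted p under 0.05 there were also 0 members. The share over all miRNAs is not given at that threshold, so this count is not read as a result. The level of miR-542-5p was 0.876 ± 0.778 CPM in PiZ mice and 2.30 ± 1.68 CPM in WT mice (SD, n = 5 each), with 2 of 5 PiZ mice below every WT mouse. Its log2 fold change was -1.07 (SE 0.66, edgeR adjusted p = 0.499), and -0.31 (SE 0.72) without WT mice 1 and 3, the WT mice with its highest levels. Its GC content is 54.5%.

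The other low members had at most 14 reads in any mouse. miR-503-5p, the arm with a seed close to that of miR-322-5p, had 1, 3, 11, 12 and 0 reads in PiZ mice 1 to 5, against 2, 1, 0, 4 and 3 reads in WT mice 1 to 5. miR-450b-3p had 2 to 14 reads in PiZ mice and 1 to 3 reads in WT mice, from libraries of unlike depth. Scaled for depth it had 0.701 to 1.24 CPM in PiZ mice and 0.217 to 1.68 CPM in WT mice, highest in WT mouse 3. Its log2 fold change was 0.84 (SE 0.75, edgeR adjusted p = 0.697). miR-351-3p had 0 to 4 reads in PiZ mice and 0 to 8 reads in WT mice, for a log2 fold change of -1.11 (SE 0.94, edgeR adjusted p = 0.697). miR-450a-2-3p had 2 reads in PiZ mouse 3 and 0 in the other 9 mice. miR-450a-1-3p, listed in the shorter-list set alone, had 1, 6 and 1 reads in PiZ mice 3 to 5, against 1 and 3 reads in WT mice 4 and 5, and was not tested.

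The hairpins differed in which arm was found. The hairpin of miR-322 and that of miR-542 are shown because their major arms lie on opposite sides; capitals mark the 5p and then the 3p mature form.
Mir322: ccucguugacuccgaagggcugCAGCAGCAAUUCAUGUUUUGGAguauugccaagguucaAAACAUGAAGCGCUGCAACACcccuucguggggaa
Mir542: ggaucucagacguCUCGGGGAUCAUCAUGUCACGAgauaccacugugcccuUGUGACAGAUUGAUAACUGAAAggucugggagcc

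For miR-322, the 5p form made up 72.4% to 82.4% of the hairpin's reads in PiZ mice and 66.9% to 81.0% in WT mice. For miR-542 the 3p form was the major one in all 5 PiZ mice, where the 5p share was 0% to 23.0%; in PiZ mouse 1 the 0 of 21 reads allow a share of up to 14.3%. In WT mice 2, 4 and 5 the 5p share of miR-542 was 20%, 11.7% and 7.07%, but in WT mouse 1 it was 70%, from 7 of 10 reads (95% Wilson interval 39.7% to 89.2%), and in WT mouse 3 it was 71.4%, from 5 of 7 reads (35.9% to 91.8%). Summed over the mice, miR-503 gave 27 reads from 5p and 58 from 3p in PiZ mice, against 10 and 38 in WT mice, a 5p share of 31.8% in PiZ mice (95% Wilson interval 22.8% to 42.3%) and 20.8% in WT mice (11.7% to 34.3%). These intervals cover counting error only. For miR-351 the 5p form made up over 99% of the reads in every mouse. For miR-450a it made up 99.0% to 99.9% in PiZ mice 3 to 5, against 99.7% and 99.3% in WT mice 4 and 5. In the longer-list mice, where miR-450a-1-3p was not listed, a share of the same kind cannot be given. For miR-450b the 5p form was the major one except in WT mice 1 and 3, where it gave 0 of 1 and 1 of 4 reads. The 95% Wilson intervals there were 0% to 79.35% and 4.56% to 69.9%, too wide to tell the major arm.

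The balance of the arms was tested with limma for the 64 hairpins whose arms each averaged at least 20 reads, of which miR-322 was the one member hairpin. For miR-322, 5p over 3p reads came on the log2 scale to 1.81 ± 0.376 in PiZ mice and 1.57 ± 0.441 in WT mice (SD, n = 5 each), a difference of 0.19 (SE 0.29, limma adjusted p = 0.755). It was -0.07 (SE 0.26) without WT mice 1 and 3. In this limma test 0 hairpins passed, 0% of those tested, and 2 had an unadjusted p under 0.05. With a minimum of 5 reads per arm miR-542 could be tested too, and its log2 ratio differed by -2.16 (SE 1.01, limma adjusted p = 0.621). No fit without WT mice 1 and 3 was made at this minimum. Those mice had ratios of 1.10 and 1.14, on 10 and 7 reads, against -1.84, -2.85 and -3.62 in WT mice 2, 4 and 5. PiZ mice 2 to 5 had -3.63 to -1.72, and the -5.43 of PiZ mouse 1 came from 0 reads of 5p.

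Over the 21 pairs of tested members, Pearson's r of log2 CPM was positive for 11 across the 10 mice and for 14 without WT mice 1 and 3. The highest across the 10 mice was 0.965, between miR-322-5p and miR-450b-5p, which has 0 reads in WT mouse 1, and it was 0.450 without WT mice 1 and 3. Between miR-322-3p and miR-450a-5p, r was 0.901 across the 10 mice and 0.855 without those mice. miR-351-5p had r = -0.591 with miR-322-5p over 10 mice and 0.642 over the 8 without WT mice 1 and 3. Reads of miR-351-5p for each read of miR-322-5p numbered 0.852, 1.046, 0.781, 0.757 and 0.974 in PiZ mice 1 to 5. In WT mice 1 to 5 they numbered 5.03, 0.655, 2.67, 0.931 and 1.00. Outside WT mice 1 and 3 this ratio was thus between 0.655 and 1.046 in both genotypes. Reads of miR-450a-5p for each read of miR-322-5p numbered 0.1797 to 0.357 in PiZ mice and 0.225 to 0.298 in WT mice, WT mice 1 and 3 included. These correlations are descriptions over mice that share a file set and depth.

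The member with the highest mean CPM over the 10 mice was miR-351-5p. The 5 miRNAs outside the cluster with the most similar log2 CPM over the 10 mice, among 329 candidates, were miR-193a-5p (Pearson's r = 0.898), miR-214-3p (0.864), miR-532-5p (0.862), let-7a-5p (0.861) and miR-7688-5p (0.857). Each had its highest level in WT mouse 1. Without WT mice 1 and 3 the same r was 0.808 for miR-193a-5p, 0.678 for miR-214-3p, 0.732 for miR-532-5p, 0.680 for let-7a-5p and 0.905 for miR-7688-5p. In WT mouse 2, which had the lowest miR-351-5p, miR-7688-5p was at 0 CPM and miR-193a-5p at 0.522 CPM. Their r thus rests in part on values near the floor, and Spearman's rho over the 10 mice was 0.285 for miR-7688-5p.

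Among seed relatives from other loci were some far more abundant than the member that shares the seed and some less so. With the seed of miR-322-5p, miR-16-5p had 11358 ± 3011 CPM in PiZ mice and 13562 ± 3588 CPM in WT mice, and miR-195b had 158 ± 37.0 CPM in PiZ mice and 149 ± 29.0 CPM in WT mice (SD, n = 5 each). Of 5 such miRNAs tested, 0 passed in edgeR, and the median log2 fold change was -0.05 with all mice and -0.21 without WT mice 1 and 3. With the seed of miR-351-5p, miR-125a-5p had 1430 ± 294 CPM in PiZ mice and 1451 ± 495 CPM in WT mice, and miR-125b-5p had 850 ± 455 CPM in PiZ mice and 1085 ± 468 CPM in WT mice (SD, n = 5 each). Neither passed, with log2 fold changes of 0.02 for miR-125a-5p and -0.30 for miR-125b-5p. The median of this pair was -0.14 with all mice and 0.18 without WT mice 1 and 3. The seed of miR-542-5p is shared by 1 other listed miRNA, miR-6966-5p, which had 0.0200 ± 0.0448 CPM in PiZ mice and 0 in WT mice and was not tested.

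Of 20 other X-linked miRNAs tested in edgeR, 0 rose and 1 fell, and their median log2 fold change was -0.15, beside 0.50 for the 7 members. These medians without WT mice 1 and 3 were -0.06 for the other X-linked miRNAs and 0.24 for the members.

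Cell type markers were set beside these values. miR-122-5p, the miRNA that marks hepatocytes, had 9512 ± 1726 CPM in PiZ mice and 13013 ± 1133 CPM in WT mice (SD, n = 5 each), lower in 5 of 5 PiZ mice (log2 fold change -0.48, edgeR adjusted p = 0.119). The 5 immune miRNAs summed to 1671 to 2632 CPM in PiZ mice and 624 to 1891 CPM in WT mice, and 0 of 5 passed (median log2 fold change 0.77, and 0.51 without WT mice 1 and 3). Of these, miR-223-3p was higher in 5 of 5 PiZ mice (log2 fold change 0.77, edgeR adjusted p = 0.0632). The groups overlapped for the others, with log2 fold changes of 0.96 for miR-142-3p, 1.03 for miR-142-5p, 0.41 for miR-150-5p and -0.06 for miR-155-5p. By mean level miR-142-5p was the largest part of the sum, and it was lowest in WT mice 1 and 3, at 220 and 300 CPM. The 2 stellate cell miRNAs tested summed to 221 to 338 CPM in PiZ mice and 194 to 342 CPM in WT mice, with 0 of 2 past the threshold (median 0.05, and 0.25 without those mice). Of 4 biliary and epithelial miRNAs 0 passed (median 0.54, and 0.43 without those mice), and miR-200a-3p and miR-141-3p were each higher in 5 of 5 PiZ mice, with log2 fold changes of 0.62 (edgeR adjusted p = 0.109) and 0.60 (edgeR adjusted p = 0.113). These 2 had the same or nearly the same level in every mouse, such as 22.7 CPM of each in PiZ mouse 3, so they may not be separate measurements. The others, miR-200b-3p and miR-429-3p, had log2 fold changes of 0.08 and 0.49, with overlapping groups. Of 2 erythroid miRNAs 0 passed (median 1.40, and 1.01 without those mice), with miR-451a at 1.26 (edgeR adjusted p = 0.119) and miR-144-3p at 1.53 (edgeR adjusted p = 0.108). Of 2 endothelial miRNAs 0 passed (median 0.07, and -0.34 without those mice), and of 2 smooth muscle miRNAs 0 passed (-0.11, and -0.22 without those mice). The smooth muscle miRNAs went opposite ways, with miR-143-3p at 0.27 (edgeR adjusted p = 0.605) and miR-145a-5p at -0.50 (edgeR adjusted p = 0.196). Of 3 pancreas miRNAs 1 rose (median 4.12, and 5.02 without those mice). It was miR-217-5p, with 4.70 ± 4.47 CPM in PiZ mice and 0.0303 ± 0.0678 CPM in WT mice (SD, n = 5 each), and with 0 CPM in PiZ mouse 5. Of the others, miR-216a-5p was at 4.12 (edgeR adjusted p = 0.0579) and miR-375-3p at -0.08 (edgeR adjusted p = 0.932). The 3 skeletal and heart muscle miRNAs did not pass the filter. PiZ mouse 4 stood apart in them, with 25.4 CPM of miR-1a-3p and 41.3 CPM of miR-133a-3p, against at most 1.64 CPM in the other PiZ mice and 2.15 CPM in WT mice; miR-206-3p was at 0 in the other 9 mice. This mouse also had the highest miR-322-5p and miR-542-3p levels, and without it their log2 fold changes were 0.64 (SE 0.28) and 0.49 (SE 0.47). The part of the makeup of cells in the cluster's values was not tested.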

How the data were processed

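The TruSeq small RNA kit was used for the libraries, per the labels. Estimated counts of reads per mature miRNA were deposited by the authors for 20 runs of 10 livers. Their processing notes name CASAVA; the sources used here do not give the aligner, the miRBase release or the build. Counts of all members were whole, with no joined names. The 2 runs of a mouse were summed and rounded; over members, their chi-square per degree of freedom was 0.557 to 3.27. The 880 miRNAs listed in every file were filtered with filterByExpr and given TMM factors. The quasi-likelihood F-test of edgeR 4.0.16 had terms for file set and genotype, with Benjamini-Hochberg adjustment and a threshold of 0.05. Each SE is the log2 fold change over the square root of its F. For the arms, limma 3.58.1 was run on log2 ratios of reads, 0.5 being added to each arm. DESeq2 1.42.0 and limma-voom served as alternatives, in R 4.3.3; Wilson intervals came from scipy 1.17.1 and plots from matplotlib 3.10.9 in Python 3.11.15. The steps were tested on simulated data. Similarity of profiles used log2 CPM with a prior count of 2.

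Named miRNAs are all members, the 5 miRNAs most like the member with the highest mean CPM, the 2 most abundant relatives per seed and the marker lists; miR-6966-5p was the one relative of its seed with reads. The members and lists were chosen with earlier results of these data known, among them the finding that WT mice 1 and 3 stand apart. Mice are separate animals by their labels. Reads are not independent molecules, so intervals and floors cover counting error only.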

Additional observations from a re-analysis of the deposited data

Results flagged for a closer look

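Over 47 groups of 5 mice (levels of the members, shares of the hairpins and ratios between members), 4 had a mouse whose gap to its nearest neighbour exceeded 0.71 of the group's range, the Dixon limit for 5 values. Chance flags about 1 in 20 groups, or 2.35 of 47, and the groups are not independent of each other. In miR-450a-5p, PiZ mouse 5 stood highest with 89.0 CPM, against 42.8 to 54.1 CPM in the other PiZ mice, a gap of 0.755 of the range. The same mouse stood highest in the share of cluster reads from miR-450a, with 12.8%, against 8.03% to 9.26% in the other PiZ mice, a gap of 0.743. In reads of miR-450a-5p for each read of miR-322-5p, WT mouse 3 stood highest among WT mice with 0.298, against 0.225 to 0.242 in the others, a gap of 0.761. In miR-450a-2-3p, PiZ mouse 3 had the 2 reads found in any mouse, so its gap was 1.00 of the range.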

How the results depend on the processing

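The count of members past an adjusted p of 0.05 was 0 in the fit with all mice and in each alternative run: other scalings, no filter, DESeq2, limma-voom, no file set term, either run by itself, either file set by itself, and leaving out any one mouse. The number of all miRNAs that passed varied widely between these runs. It was 0 of 395 in the shorter-list set and 5 of 311 without WT mouse 4, but 46 of 295 without PiZ mouse 5. Where few or no miRNAs passed, a count of 0 members says little. The counts of members between file sets and for the arms were also 0 in each alternative run. Over all miRNAs, 6 of 852 passed between file sets with no filter and 15 of 407 without WT mouse 2. For the arms, 2 of 64 hairpins passed with a pseudocount of 5 and 1 of 62 without WT mouse 5. No paired analysis was possible because the replicate numbers in the labels mark technical runs of a library, and the numbers 1 to 5 used here for the mice of each genotype only name separate animals and pair none of them. The log2 fold changes of miR-322-5p, miR-322-3p and miR-450a-5p were positive in every alternative. With a mouse left out in turn they ranged from 0.26 to 0.74, from 0.13 to 0.63 and from 0.34 to 0.74. The sign of 4 other members and of the miR-322 arm balance turned in some alternatives. For miR-351-5p it was 0.04 with run 2 alone, 0.06 in the shorter-list set, 0.28 without WT mice 1 and 3, 0.25 without PiZ mouse 5 as well, and -0.25 to 0.04 with a mouse left out. For miR-450b-5p it was -0.002 in the shorter-list set, -0.03 without WT mice 1 and 3, -0.10 without PiZ mouse 5 as well, and -0.06 to 0.72 with a mouse left out. For miR-503-3p it was 0.04 in the shorter-list set, 0.17 without WT mice 1 and 3, 0.28 without PiZ mouse 5 as well, and -0.35 to 0.05 with a mouse left out, in the 5 of 10 such fits where it passed the filter. miR-542-3p had -0.02 in the shorter-list set and 0.10 to 0.68 with a mouse left out. The arm difference of miR-322 was -0.07 without WT mice 1 and 3 and 0.05 to 0.33 with a mouse left out. The cause of these turns was not tested. Depth limits the low members: 3 reads, the most that a count of 0 allows, are 2.15 CPM in WT mouse 1 and 0.266 CPM in PiZ mouse 4.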
